A study of Mus musculus with 23 samples.

Results

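The genes described are 9 genes that mark or act in endothelial cells (Pecam1, Cdh5, Kdr, Flt1, Tek, Emcn, Eng, Vwf and Stab2) and Vegfa, the growth factor to which endothelial cells respond. The list was drawn up with earlier results of these data known, and its members were matched by gene symbol. All 10 were found among the 17644 genes of the TPM table (expression scaled to transcript length) and, by gene ID, among the 67228 gene entries of the count table. All 10 also passed the filter on low counts (at least 10 counts in at least 5 mice) that left 14364 genes for testing. In GRCm38.p6 as annotated by RefSeq, they lie at chr17:46016993-46032377 (Vegfa), chr5:75932827-75979072 (Kdr), chr5:147561604-147726438 (Flt1), chr4:94739086-94874976 (Tek), chr8:104101613-104144504 (Cdh5), chr11:106654213-106715281 (Pecam1), chr2:32646595-32682669 (Eng), chr3:137341062-137431069 (Emcn), chr6:125552948-125686679 (Vwf) and chr10:86841194-87008038 (Stab2). Each of Cdh5, Kdr, Flt1, Emcn and Stab2 overlaps a noncoding gene or pseudogene, and Eng overlaps the end of the protein-coding gene Fpgs. The libraries kept strand, but whether counting used it is not given in the sources used here, so reads in these overlaps are uncertain.

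The RNA came from the femur and tibia of one hind limb, with the epiphyses removed and the marrow spun out, of 23 female C57BL6/N mice aged 11 weeks. Type 1 diabetes (T1D) was induced with streptozotocin, which destroys the insulin-producing beta cells, at 100 mg/kg per injection, and the T1D mice were examined after 3 weeks of diabetes. Control mice received saline. The groups were wild-type saline-treated mice (WT Control, n = 5), wild-type diabetic mice (WT T1D, n = 6), saline-treated mice labelled as a global Sarm1 knockout (KO Control, n = 6) and diabetic mice with the same label (KO T1D, n = 6). Sarm1 encodes an NAD-cleaving enzyme that drives axon degeneration. A global knockout is meant to remove it from every cell of the animal, endothelial cells included. WT mice were littermates or came from a supplier. Of them, 1 WT Control and 3 WT T1D mice carried IDs that begin with A17, a series with no KO mouse in it. The A39 series also held only WT mice and the A36 series only KO mice, and A37 alone held both. ID series and genotype can therefore hardly be told apart, in T1D mice not at all.

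Total counts per mouse ranged from 16938101 to 20135592. Sarm1 itself had only 5 to 32 counts per mouse, with a mean of 1.17 ± 0.403 CPM (depth-scaled counts; SD) for WT Control, 0.687 ± 0.293 for WT T1D, 0.799 ± 0.503 for KO Control and 1.19 ± 0.259 for KO T1D. On average the mice labelled KO were lower than WT in Control and higher in T1D, the ranges overlapped in both (0.268 to 1.57 against 0.845 to 1.76 CPM in Control and 0.811 to 1.46 against 0.3397 to 1.21 CPM in T1D), and gene-level counts do not separate deleted from remaining exons, so the KO groups are named here by their label. The WT T1D mice A3905 and A3906 stood apart from the other 21 mice: the summed level of 9 osteoblast genes was 8617 and 6903 CPM against 51777 to 115447 CPM in the others, that of 13 erythroid genes was 240858 and 236156 CPM against 82241 to 181927 CPM, and that of 10 megakaryocyte and platelet genes was 999 and 1023 CPM against 1393 to 2456 CPM. Values without these mice are given beside the results that moved most without them.

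Endothelial cells line the vessels of bone, which in mice include capillaries near the growth plate and endosteum that are rich in endomucin and couple to osteoblasts, arterioles, and the wide sinusoids of the marrow. VEGF-A binds the receptor tyrosine kinases VEGFR2 (Kdr), which carries most of the growth signal, and VEGFR1 (Flt1), which binds the ligand more tightly and holds it back. The angiopoietins act through another receptor tyrosine kinase, TIE2 (Tek), which keeps vessels quiescent and stable. VE-cadherin (Cdh5) and PECAM-1 (Pecam1) join endothelial cells to each other, and endoglin (Eng) is a co-receptor for BMP9 and TGF-beta.

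The 3 receptor tyrosine kinase genes had the most alike levels over the 23 mice among the 10 genes. Pearson's r of log2 CPM was 0.80 for Flt1 and Tek, 0.79 for Kdr and Flt1, and 0.79 for Kdr and Tek, given as a description since all genes of a mouse share a library. Kdr with Eng was close, at 0.78. With the group means removed, Kdr with Eng was highest (0.76), then Kdr with Flt1 (0.75) and Cdh5 with Kdr (0.74). Flt1 with Tek and Kdr with Tek were then 0.71 each, so the likeness was not particular to these 3 genes. For the 3 receptor genes, the 250 bases before their RefSeq start (GRCm38.p6) are shown, 5′ to 3′ on the strand of the gene. Capitals mark GGAA, the core bound by ETS factors, a family with well-known roles in endothelial transcription, or TTCC, the same core on the other strand. Tek lies on the plus strand (chr4:94739039-94739288), and Kdr (chr5:75978456-75978705) and Flt1 (chr5:147726012-147726261) lie on the minus strand.
Tek: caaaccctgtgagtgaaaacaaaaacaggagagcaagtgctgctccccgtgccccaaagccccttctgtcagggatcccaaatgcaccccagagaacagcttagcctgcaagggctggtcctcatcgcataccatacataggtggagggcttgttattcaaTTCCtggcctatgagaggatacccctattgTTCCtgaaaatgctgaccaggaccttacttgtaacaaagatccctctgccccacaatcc
Kdr: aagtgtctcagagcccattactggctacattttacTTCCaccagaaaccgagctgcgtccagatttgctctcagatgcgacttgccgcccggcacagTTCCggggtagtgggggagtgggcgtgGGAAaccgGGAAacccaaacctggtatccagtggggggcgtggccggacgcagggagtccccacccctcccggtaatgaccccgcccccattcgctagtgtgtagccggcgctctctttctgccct
Flt1: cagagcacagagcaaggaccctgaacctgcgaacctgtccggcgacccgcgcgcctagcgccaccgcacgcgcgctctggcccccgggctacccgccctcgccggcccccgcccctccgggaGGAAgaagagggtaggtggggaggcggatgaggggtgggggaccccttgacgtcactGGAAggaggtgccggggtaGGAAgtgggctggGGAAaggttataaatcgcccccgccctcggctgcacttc
The core occurred 2 times before Tek and 4 times before each of Kdr and Flt1. Of all 32851 windows of this length, 93.4% held it at least once, with a median of 3 copies, and 33.4% held 4 or more, so these counts are common. The windows of Kdr and Flt1 lie within the span annotated for the gene and that of Tek lies partly within it, since other transcripts start farther upstream. A window was at hand for 7 of the 10 genes.

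Per transcript length, Eng was highest with a mean of 47.9 TPM over the 23 mice, followed by Pecam1 (31.8), Emcn (31.0), Cdh5 (28.1), Vegfa (21.9), Vwf (19.1), Kdr (10.6), Stab2 (8.89), Flt1 (5.26) and Tek (4.90). Eng exceeded Pecam1 and Stab2 exceeded Flt1 in 23 of 23 mice. The order was least regular for Pecam1 over Emcn (16 of 23 mice), Vegfa over Vwf (16 of 23) and Flt1 over Tek (15 of 23). All 10 genes had counts in each mouse, the lowest being 176 for Tek in a KO T1D mouse. In bulk bone, fewer endothelial cells and less RNA per endothelial cell cannot be told apart.

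**Figure D1:**
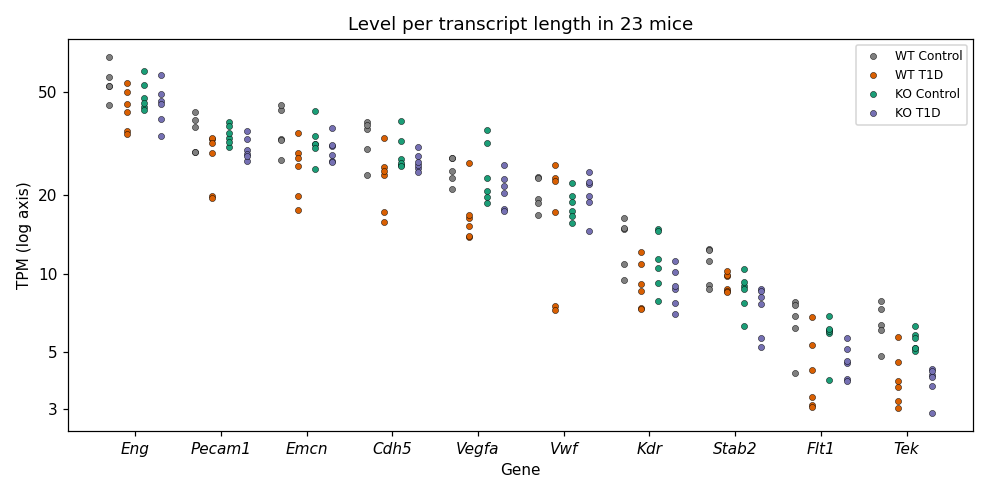
Level of the 10 genes in TPM (log axis), 1 point per mouse, coloured by group and ordered by the mean over 23 mice. Eng sat highest (mean 47.9 TPM) and Tek lowest (4.90 TPM), and the 2 low Vwf points are the WT T1D mice A3905 and A3906.

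The first question was whether T1D changed these genes in WT bone. None of the 10 passed the test at an adjusted p under 0.05 (edgeR quasi-likelihood F test, Benjamini-Hochberg over all genes), against 2.33% of all genes tested. At an unadjusted p under 0.05 there were 2 (Tek and Flt1), against 22.2% of all genes, and DESeq2 called 1 (Tek) against 6.98% of all genes. The log2 fold change was below 0 for 8 of the 10 with a median of -0.21, while 51.9% of all genes were below 0 with a median of -0.01. In KO mice 0 of the 10 passed, as did 0% of all genes, and 3 had an unadjusted p under 0.05 (Tek, Kdr and Flt1) against 3.15% of all genes; DESeq2 also called 0. There 9 of the 10 were below 0, with a median of -0.16 against 0.00 over all genes.

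**Figure D2:**
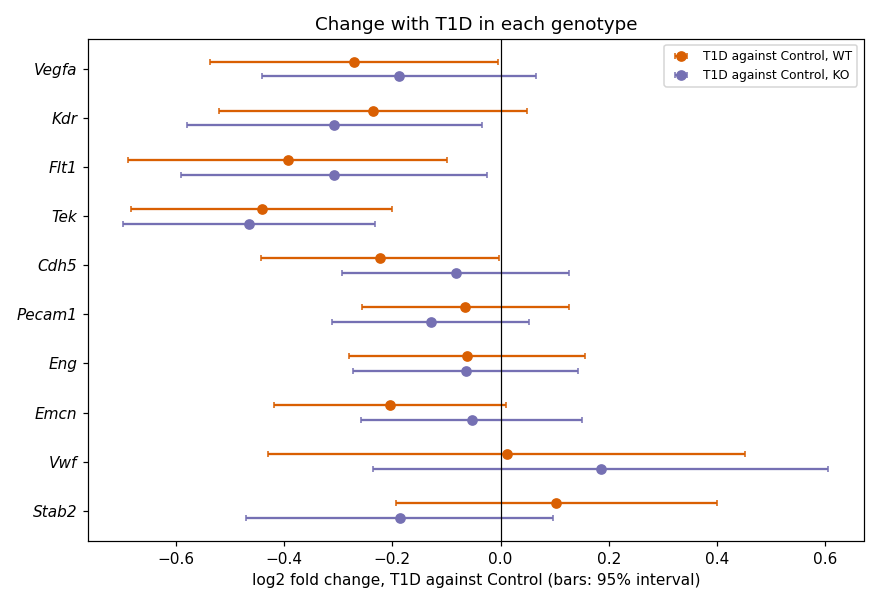
Log2 fold change of T1D against Control for the 10 genes in WT (orange) and KO (purple) mice, with bars for the 95% interval. Tek had the lowest value in both genotypes (-0.44 and -0.46), Flt1 and Kdr were also below 0 in both, and Vwf and Stab2 had the widest spread around 0.

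Tek, the TIE2 receptor, showed the most regular difference. Its levels in WT Control were 15.4, 18.7, 19.3, 22.4 and 22.6 CPM, and in WT T1D they ran from 12.5 CPM through a median of 14.0 to 18.5 CPM. In KO Control they ran from 14.5 through 17.3 to 19.8 CPM, and in KO T1D from 9.61 through 12.8 to 15.1 CPM. In each genotype 5 of the 6 diabetic mice lay below every control mouse, and the groups overlapped through 1 diabetic mouse, A3909 in WT and A3674 in KO. Of the 10 genes, Tek and Vegfa had at least 5 of 6 mice below every control in WT, where 3.79% of all genes did, and only Tek did in KO, where 0.801% of all genes did. The log2 fold change was -0.44 in WT (SE 0.12, 95% interval -0.68 to -0.20, adjusted p = 0.0524) and -0.46 in KO (SE 0.12, interval -0.70 to -0.23, unadjusted p = 0.000669, adjusted p = 1.00), neither past the threshold. By p it ranked 427 of 14364 genes in WT and 5 in KO, where no gene passed.

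A difference between the genotypes in the response of Tek was not detected, with an interaction of -0.02 on the log2 scale (interval -0.36 to 0.31, adjusted p = 0.973). When the effect of T1D was averaged over WT and KO, a contrast added after the Tek values had been seen, Tek fell by 0.45 on the log2 scale (SE 0.09, 0.731-fold, edgeR adjusted p = 0.0400), and it was the only one of the 10 genes to pass, against 0.111% of all genes. At an unadjusted p under 0.05 this contrast held 4 of the 10 (Tek, Flt1, Kdr and Vegfa), against 16.4% of all genes. The averaged call was not firm: with each mouse left out in turn it was made 8 of 23 times, with adjusted p from 0.0135 to 0.107 and the change between -0.49 and -0.42. Without A3905 and A3906 it was -0.43 (adjusted p = 0.0969), and with an erythroid marker score as a covariate it was -0.40 (adjusted p = 0.998). This score, the mean log2 level of 13 erythroid genes, did not overlap between the WT groups. It was 10.154 to 10.648 in WT Control and 10.655 to 11.447 in WT T1D. In WT the covariate can therefore hardly separate T1D from the erythroid level.

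Relative to Cdh5, which is expressed across endothelial cells, Tek was also lower in T1D. The mean log2 ratio of Tek to Cdh5 was -2.16 ± 0.07 (SD, n = 5) for WT Control against -2.37 ± 0.16 (n = 6) for WT T1D, and -2.22 ± 0.17 (n = 6) for KO Control against -2.62 ± 0.16 (n = 6) for KO T1D. The KO groups were apart by a narrow gap, with -2.87 to -2.48 in T1D and -2.44 to -1.92 in Control, and the WT groups overlapped. How many of all genes separate the KO groups in this ratio was not examined. The ratio of Kdr to Cdh5 was -0.88 in both WT groups, -0.94 in KO Control and -1.17 in KO T1D. These ratios are given as a description.

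**Figure D3:**
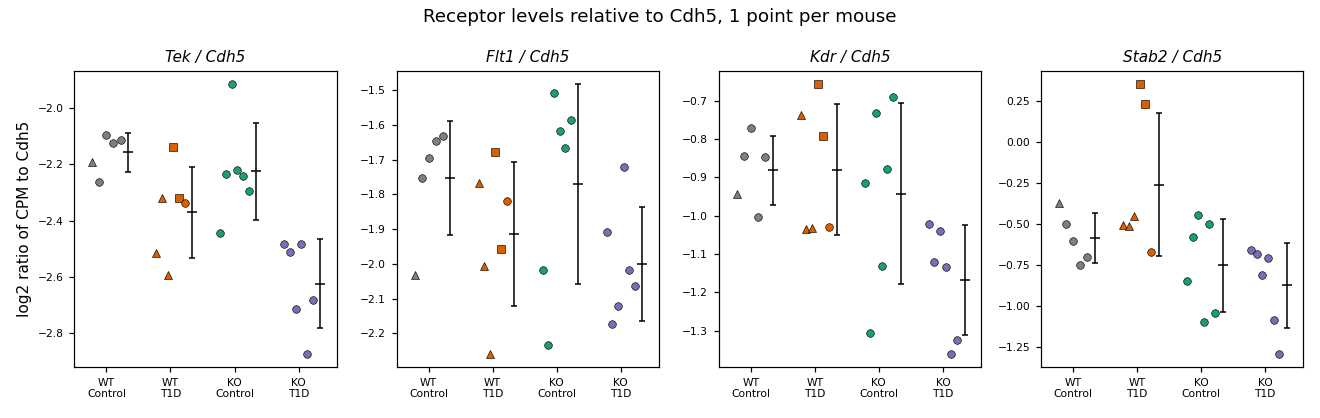
Log2 ratio of CPM to Cdh5 for Tek, Flt1, Kdr and Stab2, 1 point per mouse, with mean ± SD at the right of each group; triangles are mice with A17 IDs and squares are A3905 and A3906. Tek lay lowest in KO T1D (mean -2.62), and the Stab2 ratio was highest in A3905 and A3906.

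Flt1, which encodes VEGFR1, had the largest WT change after Tek. Its levels in WT Control were 17.2, 26.0, 27.5, 29.6 and 31.6 CPM, and in WT T1D they ran from 15.8 through 18.9 to 26.5 CPM. In KO Control they ran from 17.8 through 24.7 to 27.6 CPM, and in KO T1D from 17.1 through 18.2 to 22.6 CPM. The low value among WT controls was A1757, whose ID is in the A17 series, and both pairs of groups overlapped. The log2 fold change was -0.39 in WT (SE 0.15, adjusted p = 0.127) and -0.31 in KO (SE 0.14, adjusted p = 1.00). With the erythroid score as a covariate the WT value was -0.07 (adjusted p = 0.999), and without A3905 and A3906 it was -0.31.

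Kdr encodes VEGFR2. It measured 36.6, 40.7, 51.6, 54.6 and 56.2 CPM in WT Control, and 36.8 to 49.2 CPM (median 37.7) in WT T1D. In KO Control it ran from 33.6 through 41.2 to 54.5 CPM, and in KO T1D from 27.4 through 34.1 to 41.6 CPM, with 3 of 6 diabetic mice below every control. The log2 fold change was -0.24 in WT (SE 0.15, adjusted p = 0.345) and -0.31 in KO (SE 0.14, adjusted p = 1.00). With the erythroid covariate the WT value was -0.06.

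Vegfa is the ligand of both receptors and in bone is made largely by cells other than endothelium, including osteoblast-lineage cells. WT Control mice had 47.2, 49.4, 50.3, 53.8 and 58.7 CPM, and WT T1D mice ran from 37.8 through 40.9 to 57.7 CPM. In WT, 5 of the 6 T1D mice lay below every control, and the exception was A3909. KO Control ranged from 43.9 through 46.6 to 74.2 CPM and KO T1D from 39.02 through 46.2 to 55.3 CPM, so the KO groups overlapped widely. The log2 fold change was -0.27 in WT (SE 0.14, interval -0.54 to -0.01, adjusted p = 0.242) and -0.19 in KO (SE 0.13, adjusted p = 1.00). With the erythroid covariate the WT value was 0.02.

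**Figure D4:**
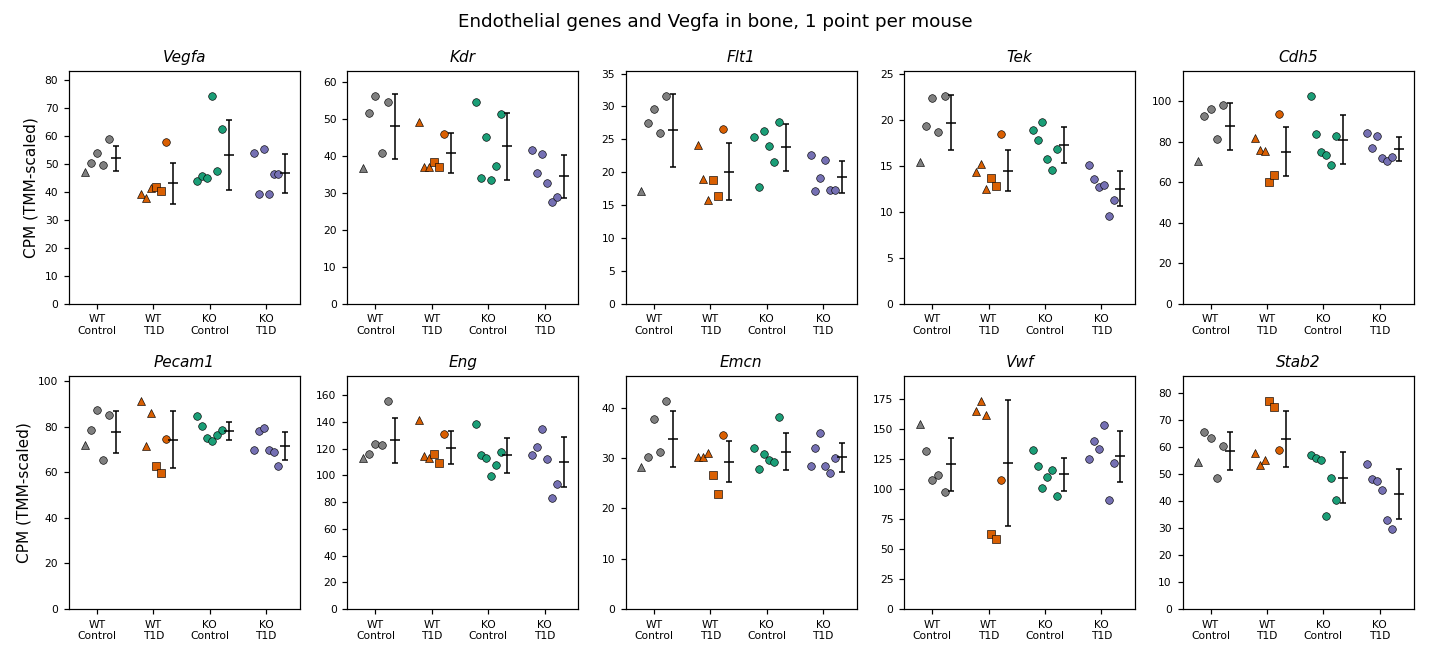
CPM of the 10 genes, 1 point per mouse, with mean ± SD at the right of each group; triangles are mice with A17 IDs and squares are the WT T1D mice A3905 and A3906. Tek was lower in T1D in both genotypes, while Vwf in WT T1D split into 3 mice at 162 to 174 CPM and 2 at 58.4 and 63.0 CPM, with A3909 between them.

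The junction genes moved less. Cdh5 averaged 87.7 ± 11.6 CPM (SD) for WT Control against 75.2 ± 12.1 for WT T1D, and 81.1 ± 12.1 for KO Control against 76.5 ± 6.07 for KO T1D, with log2 fold changes of -0.22 (SE 0.11, adjusted p = 0.244) in WT and -0.08 (SE 0.11) in KO. Its lowest values in WT T1D, 60.3 and 63.8 CPM, were those of A3905 and A3906, and the WT change was -0.10 without them and -0.02 with the erythroid covariate. Pecam1, which platelets and leukocytes also express, averaged 77.7 ± 9.08, 74.3 ± 12.5, 78.1 ± 3.99 and 71.4 ± 6.14 CPM in the same order, with changes of -0.06 (SE 0.10) and -0.13 (SE 0.09). Its WT change turned to 0.05 without A3905 and A3906. Neither gene passed the test in either genotype.

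Eng and Emcn also overlapped between groups. Eng averaged 126 ± 17.1 CPM for WT Control against 121 ± 12.5 for WT T1D, and 115 ± 12.99 for KO Control against 110 ± 18.8 for KO T1D, with a change of -0.06 in each genotype (SE 0.11 in both). The intervals, -0.28 to 0.16 in WT and -0.27 to 0.14 in KO, bound its change. Emcn, the sialomucin endomucin, averaged 33.7 ± 5.55, 29.3 ± 4.03, 31.3 ± 3.63 and 30.1 ± 2.86 CPM, with changes of -0.20 (SE 0.11, adjusted p = 0.277) in WT and -0.05 (SE 0.10) in KO. The WT value of Emcn was -0.10 without A3905 and A3906 and 0.12 with the erythroid covariate.

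Vwf encodes von Willebrand factor, which endothelium and megakaryocytes both make. WT Control mice had 97.5, 108, 112, 132 and 154 CPM. WT T1D mice ran from 58.4 through 134 to 174 CPM, KO Control from 94.3 through 113 to 133 CPM and KO T1D from 91.2 through 129 to 154 CPM. In WT T1D the 3 mice with A17 IDs were above every WT Control mouse (162, 166 and 174 CPM) and A3905 and A3906 were below every one (63.0 and 58.4 CPM). The highest WT Control mouse, at 154 CPM, was A1757, also of the A17 series. The WT change was 0.01 (SE 0.22), and within mice with A36 to A39 IDs it was -0.55 (adjusted p = 0.0530), while without A3905 and A3906 it was 0.33 (adjusted p = 0.432). The A36 to A39 subset holds only 3 WT T1D mice, of which 2 are A3905 and A3906. The part of the lower megakaryocyte and platelet sum of those 2 mice in their Vwf level was not tested. In KO the change was 0.19 (SE 0.21).

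Stab2, the scavenger receptor stabilin-2 of sinusoidal endothelium, differed most between the genotypes among the diabetic mice. WT Control mice had 48.5, 54.5, 60.6, 63.3 and 65.7 CPM, and WT T1D mice ran from 53.2 through 58.4 to 77.0 CPM. KO Control ran from 34.4 through 51.8 to 57.2 CPM, and KO T1D from 29.6 through 45.7 to 53.7 CPM. In T1D, 5 of 6 KO mice lay below every WT mouse, as did 1.92% of all genes, and Stab2 was the only one of the 10 to do so. KO against WT in T1D gave -0.56 on the log2 scale (SE 0.15, interval -0.84 to -0.27, unadjusted p = 0.000812, adjusted p = 0.102). The highest WT T1D values, 77.0 and 74.9 CPM, were A3905 and A3906, and the difference without them was -0.40 (adjusted p = 0.658). With the erythroid covariate it was -0.29 (adjusted p = 0.747), and in the mice with A36 to A39 IDs alone it was -0.73 (adjusted p = 0.0194). That subset holds only 3 WT T1D mice, A3905 and A3906 among them, and 10.8% of all genes were called in it. Its WT T1D mice all carry A39 IDs and its KO T1D mice all carry A36 IDs, so it does not separate genotype from ID series. In Control mice the KO value was -0.27 (SE 0.15, adjusted p = 0.999), and the interaction was -0.29 (SE 0.21, adjusted p = 0.615).

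For the comparisons between genotypes, 0 of the 10 genes passed in Control mice (0.0278% of all genes did), 0 in T1D mice (0.0905%) and 0 for the interaction (0%). At an unadjusted p under 0.05 there were 0 in Control mice (4.8% of all genes), 1 in T1D mice, Stab2 (17.1%), and 0 for the interaction (10.2%). DESeq2 called 0 in Control mice (0.0279% of all genes), 1 in T1D mice (Stab2, against 1.66%) and 0 for the interaction (0%). The widest interaction interval was that of Vwf, -0.43 to 0.78, and the narrowest that of Pecam1, -0.33 to 0.20.

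The other genes of the endothelial program were described by lists. Of 16 further pan-endothelial genes, 14 were below 0 in WT T1D and 2 above, with a median of -0.19. edgeR called 0 and DESeq2 called 1, Tie1, which is also in the angiopoietin list. For this list and those below, the shares of all genes called in WT were 2.33% with edgeR and 6.98% with DESeq2. In KO and for the interaction the share was 0% with both. In KO 12 were below 0, with a median of -0.10. The genes with the largest changes were Sox7, Clec14a and Sox18, of which Sox7 and Sox18 are SoxF transcription factors and Clec14a is an endothelial C-type lectin. Clec14a averaged 16.1 ± 2.66 CPM in WT Control and 10.7 ± 3.10 CPM in WT T1D (log2 -0.58, SE 0.20, adjusted p = 0.0922), and Sox18 56.2 ± 13.2 and 43.5 ± 9.64 CPM (log2 -0.37, adjusted p = 0.161). Sox7, at 3.38 ± 1.11 and 2.11 ± 1.06 CPM, gave -0.68 (SE 0.34, adjusted p = 0.240).

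Of 7 VEGF ligands and co-receptors, 4 were below 0 in WT T1D and 3 above (median -0.03). In KO 6 were below 0 and 1 above (median -0.14). In WT edgeR called 0 and DESeq2 called 1, Nrp2. Nrp2, the neuropilin-2 co-receptor for VEGF-C and semaphorins, was 377 ± 53.0 CPM in WT Control and 221 ± 96.8 CPM in WT T1D (log2 -0.77, SE 0.22, adjusted p = 0.0559 with edgeR and 0.0131 with DESeq2), and 320 ± 32.0 and 361 ± 38.4 CPM in KO Control and KO T1D (log2 0.17). Without A3905 and A3906 the WT value was -0.43 (adjusted p = 0.273). Vegfc, the ligand of VEGFR3, gave -0.20, and Pgf, placental growth factor and a ligand of VEGFR1, gave 0.18.

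The angiopoietin pathway held 6 genes beside Tek, with 2 below 0 and 4 above in WT T1D (median 0.11). In KO 5 were below 0 and 1 above (median -0.13). In WT edgeR called 0 and DESeq2 called 1, Tie1. Tie1, the partner receptor of TIE2, averaged 36.7 ± 5.07 CPM in WT Control and 28.4 ± 5.38 CPM in WT T1D (log2 -0.37, SE 0.12, adjusted p = 0.0781 with edgeR and 0.0492 with DESeq2), against -0.14 in KO. Angpt2, the ligand that antagonizes TIE2 in many settings, gave 0.32 in WT (SE 0.16, adjusted p = 0.231) and -0.17 in KO, and Angpt4 gave 0.38 and 0.19.

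Among the 10 genes for endoglin-pathway receptors and targets, 9 were tested. In WT T1D 8 of these were below 0, edgeR and DESeq2 each called 0, and the median was -0.20, while in KO 6 were below 0 with a median of -0.05. Id3, a BMP target, gave -0.48 (SE 0.20, adjusted p = 0.163), Smad6, an inhibitory SMAD, -0.54 (adjusted p = 0.285), and Acvrl1, the BMP9 receptor ALK1, 0.37 (adjusted p = 0.290). Gdf2, which encodes BMP9, had no counts in 21 of 23 mice.

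Of 9 arterial endothelial genes, 7 were below 0 in WT T1D with a median of -0.38, and 8 in KO with a median of -0.12. In WT edgeR called 0 and DESeq2 called 1, Efnb2. The ephrin-B2 gene Efnb2 was 10.3 ± 1.36 CPM in WT Control and 7.45 ± 1.56 CPM in WT T1D (log2 -0.47, SE 0.14, adjusted p = 0.0598 with edgeR and 0.0327 with DESeq2), and the Notch ligand Dll4 was 7.87 ± 1.18 and 5.88 ± 0.845 CPM (log2 -0.42, SE 0.15, adjusted p = 0.105). Sox17, a regulator of arterial identity, gave -0.43 (adjusted p = 0.191). In KO the values were -0.04, -0.12 and -0.23.

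Of 8 sinusoidal and lymphatic endothelial genes, 6 were below 0 and 2 above in WT T1D (median -0.04) and also in KO (median -0.08). edgeR called 1 up and 1 down in WT, where 2.33% of all genes were called. None was called in KO, where 0% of all genes were. For the interaction 0 of the list and 0% of all genes were called, so a difference in response between genotypes was not detected. For KO against WT in T1D 1 was called, lower in KO, against 0.0905% of all genes. Cd36, a fatty acid transporter also found on macrophages and adipocytes, rose from 62.0 ± 12.2 CPM in WT Control to 118 ± 42.2 CPM in WT T1D (log2 0.93, SE 0.18, adjusted p = 0.0251), and was 67.1 ± 10.7 and 65.1 ± 8.19 CPM in KO Control and KO T1D. Stab1, stabilin-1, which macrophages also express, fell from 75.3 ± 13.004 to 46.3 ± 10.7 CPM (log2 -0.70, SE 0.14, adjusted p = 0.0294), and was 57.7 ± 5.22 and 54.0 ± 7.33 CPM in the KO groups. Without A3905 and A3906 the values were 0.57 and -0.56, each with an adjusted p of 0.129. Cd36 was also not called without any one of A3767, A3903, A3904, A3907, A3905 or A3906 (log2 0.74 to 1.00), nor Stab1 without any one of A3767, A3903, A3907, A1787, A3905 or A3906 (log2 -0.69 to -0.58). Lyve1, the hyaluronan receptor of lymphatic endothelium, gave 0.42 (adjusted p = 0.510).

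Of 11 regulators of VEGF expression and hypoxia targets, 8 were below 0 in WT T1D, with 0 called by edgeR or DESeq2 and a median of -0.09. Ndrg1 gave -0.30 (SE 0.10, adjusted p = 0.0971), Adm, adrenomedullin, -0.45 (adjusted p = 0.436) and Bnip3, a mitophagy receptor, 0.33 (adjusted p = 0.525). In KO the list was split 6 to 5 around 0 with a median of -0.01.

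Markers of other cells moved in WT T1D beside these genes. Of 13 erythroid genes tested, 8 rose and none fell in WT, and none passed in KO, where no gene at all did. No gene at all passed for the interaction either. Their summed level was 99521 to 145267 CPM in WT Control and 128436 to 240858 CPM in WT T1D. Of 9 osteoblast genes, Ibsp (log2 -0.78) and Runx2 (-0.66) fell in WT and none in KO, with sums of 59250 to 115447 and 6903 to 82965 CPM. Of 9 pericyte and smooth muscle genes 1 fell, Cspg4 (log2 -0.88), and of 5 adipocyte genes tested 1 rose, Fabp4 (log2 1.36); these 4 genes are named after their values were seen. The number of genes called in WT, 334, ran from 0 to 1262 with each mouse left out in turn. None of the 10 megakaryocyte, 9 neutrophil, 7 chondrocyte, 8 muscle and 7 macrophage genes tested passed with edgeR in WT, while DESeq2 called 1 chondrocyte and 1 macrophage gene. Without A3905 and A3906 none of these lists, and no gene at all, passed in WT. With the erythroid score as a covariate, the WT change of the 10 genes ran from -0.35 (Tek) to 0.18 (Vwf) and 0 were called, as were 0 of all genes. The score did not overlap between the WT groups, so it can hardly be separated from T1D there. The part of the other cells in the levels of the endothelial genes was not tested.

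The genes whose levels over the 23 mice were most like Cdh5, among 13297 genes with a mean of at least 1 CPM, were Gpc6 (Pearson's r 0.90), Fstl1 (0.89), Nedd4 (0.89), Col4a1 (0.88) and Tie1 (0.86). For Vegfa they were Wdr47 (0.82), Hoxc9 (0.78), Rgs5 (0.77), Acad11 (0.76) and Stap2 (0.76). Within the 10 genes, Vwf stood apart, with r of 0.00 with Kdr, -0.06 with Flt1 and -0.01 with Tek, and Stab2 with Vegfa was lowest at -0.28. These correlations share library and depth and are a description.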

How the data were processed

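RNA from marrow-depleted bone of 23 mice was sequenced as polyA-selected libraries on DNBSEQ. Per the paper's methods, SOAPnuke cleaned the reads, HISAT and Bowtie2 placed them, and RSEM gave expected counts. The authors deposited these expected counts, rounded to whole numbers, and TPM values, on GRCm38.p6 (mm10); tool versions are not given in the sources used here. The test of the 14364 genes that reached 10 counts in 5 or more mice used edgeR 4.0.16 (TMM factors, quasi-likelihood F test, a model of genotype, diabetes and their interaction over all 4 groups), with Benjamini-Hochberg adjustment over all genes. The 95% intervals are normal intervals from the SE that the test statistic gives. Groups came from the sample labels, and mice are the replicates. DESeq2 1.42.0, other scale factors, no filter, limma 3.58.1 on log2(TPM + 1) and log2(TPM + 0.1), subsets of mice, an erythroid covariate and each mouse left out were alternatives. Total counts per mouse were 16938101 to 20135592. CPM values use TMM-scaled totals; correlations used log2(CPM + 0.5). The 3 genes named per pathway list averaged 1 CPM or more and had the largest absolute log2 change in WT; the 5 most alike genes were taken for Cdh5 and Vegfa. The genes and lists were chosen with earlier results of these data known. Each pair of mice within a group differed by more than sampling noise. Sequences and positions are from RefSeq.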

Additional observations from a re-analysis of the deposited data

Results flagged for a closer look

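Within each of 40 groups (10 genes in 4 groups) the highest and the lowest mouse were compared with the rest, and 2 of the 40 stood far from the others, which is the number expected by chance (about 1 in 20). Eng in WT Control mouse A3907 was 156 CPM, with the other 4 mice between 113 and 123 CPM, and without this mouse the WT change with T1D was 0.03 in place of -0.06. Vegfa in WT T1D mouse A3909 was 57.7 CPM, with the other 5 between 37.8 and 41.7 CPM.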

How the results depend on the processing

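The count of the 10 genes called for T1D in WT, 0 in the fit reported, was 1 with DESeq2 (Tek), where 6.98% of all genes were called. It was 7 with limma on log2(TPM + 1) (36% of all genes) and 6 on log2(TPM + 0.1) (34.9%). In the mice with A36 to A39 IDs alone, 3 of them WT T1D, it was 1 (Tek, 15.5%). It was 2 at an unadjusted p (22.2%) and 0 to 2 with each mouse left out. It was 2 (Tek and Flt1) without WT Control A1757 (4.8% of all genes) or WT T1D A3909 (8.8%). It was 1 (Tek) without WT T1D A1764 (6.72%). On the TPM scales the median of all genes in WT was -0.24 (constant 1) and -0.29 (constant 0.1), against -0.01 as reported. For T1D in KO the count was 3 at an unadjusted p and 0 elsewhere. For KO against WT in T1D it was 1 with DESeq2 (Stab2; 1.66% of all genes), 2 in the A36 to A39 mice alone (Stab2 and Vwf; 10.8%) and 1 at an unadjusted p. For T1D averaged over genotypes, chosen after seeing the data and 1 as reported, it was 4 with log2(TPM + 1) (8.15% of all genes), 2 in the A36 to A39 mice (3.75%), 0 without A3905 and A3906, 0 with the erythroid covariate, 4 at an unadjusted p, and 0 to 2 with each mouse left out. It was 0 without any one of A3767, A3903, A3904, A3907, A1787, A3905, A3906, A3680, A3670, A3673, A3766, A3681, A3683, A3675 or A3676, and 2 without A3909 (1.47% of all genes). The interaction and KO against WT in Control gave 0 of the 10 in every alternative run.

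Some signs turned. With the erythroid covariate, the WT change was 0.032 for Pecam1, 0.12 for Emcn, 0.010 for Eng, -0.32 for Stab2 and 0.019 for Vegfa, the averaged change of Emcn was 0.058, and the interaction of Stab2 was 0.082. Without A3905 and A3906, the WT change was 0.0545 for Pecam1 and -0.058 for Stab2. On log2(TPM + 1) and log2(TPM + 0.1), the WT change was -0.36 and -0.39 for Vwf and -0.18 and -0.19 for Stab2, and the averaged change of Vwf was -0.12 and -0.13. In the A36 to A39 mice, Vwf was -0.55 in WT and -0.18 averaged, and Stab2 was 0.030 averaged. With each mouse left out, the WT change ran from -0.12 to 0.0004 for Pecam1, -0.10 to 0.028 for Eng and -0.12 to 0.16 for Vwf, the KO change from -0.11 to 0.0055 for Emcn and -0.14 to 0.0046 for Eng, and the averaged change of Stab2 from -0.083 to 0.0009. The cause was not tested. Tek kept a negative change in WT, KO and averaged in all 31 alternatives each, and so did Flt1, Kdr and Cdh5. Of these alternatives, 23 only left out 1 mouse, so a kept sign says little.

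Over all genes, T1D in WT called 334 genes as reported, 1002 with DESeq2, 88 with no filter, 5164 and 5019 on the TPM scales, 2211 in the A36 to A39 mice, 0 without A3905 and A3906 and 0 with the erythroid covariate. No paired analysis was possible because the groups share no replicate numbers.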
